A study of Mus musculus with 2 samples.

Results

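Genes for cell junctions and for the keratin cytoskeleton were compared between polyadenylated RNA of mouse embryonic stem (ES) cells of genotype WT and of genotype Fbxl10 T/T, with 1 library each. The members were the genes whose symbol in the deposited table was that of a numbered keratin, claudin, cadherin, desmocollin, desmoglein, plakophilin, TJP or connexin (Gja, Gjb, Gjc) gene, or Dsp, Jup, Ocln, Cgn, F11r, Epcam or Vim. This gave 54 of 13620 genes by the symbols in the table, and Epcam, listed there under its older symbol Tacstd1, was added by its Ensembl identifier, for 55 in all. Both lines were C57BL/6J cells, cultured in serum and LIF on mitotically inactivated embryonic fibroblasts that were removed by letting them adhere before use. The labels do not say how many cultures went into a library. Fbxl10 is an older symbol of Kdm2b, whose protein is a subunit of a variant Polycomb complex and binds unmethylated CpG-rich DNA; the labels do not describe the T allele. The title of the series concerns the protection of Polycomb-bound genes from DNA hypermethylation.

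Epithelial cells are held together by several kinds of junction. Cadherins join neighbouring cells and are tied to actin through catenins, desmosomes join their keratin filaments, claudins and occludin seal the space between them, and connexins form channels from cell to cell. Keratins assemble as pairs of a type I and a type II protein, and Krt8 with Krt18 is the pair of simple epithelia and of the first epithelia of the embryo. ES cells carry E-cadherin (Cdh1) at their contacts. A change from Cdh1 to Cdh2, with loss of Epcam and gain of Vim, is the classical sign of an epithelial to mesenchymal transition.

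Levels are normalised CPM, in which each gene's reads are scaled to 1000000 reads of a library size that is not the sum of the listed reads. The listed genes held 21198574 reads in WT and 27109446 in Fbxl10 T/T. With 1 library per genotype nothing was tested between genotypes, "higher" and "lower" describe these 2 libraries, and the intervals given after folds are exact (Clopper-Pearson) 95% intervals that cover counting error only. In RNA of a whole culture, fewer cells of a type and less RNA per cell cannot be told apart. Kdm2b itself was at 102.5 CPM in WT and 10.6 CPM in Fbxl10 T/T. Of 12 ES cell markers 9 were at least 2-fold lower in Fbxl10 T/T and none higher, and of 20 markers of extraembryonic endoderm 16 were higher and 3 lower, with summed levels of 7762 and 1993 CPM for the ES cell markers, so the T/T library went against its ES cell label in part.

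In Fbxl10 T/T 6 of 8 claudins, the 4 classical cadherins Cdh1 to Cdh4 and the keratin Krt7 were lower. The keratins Krt8, Krt18 and Krt19, desmoplakin, the connexins Gja4 and Gjb5 and the cadherins Cdh5 and Cdh6 were higher. A gene was counted as higher or lower at a 2-fold ratio of CPM + 0.5 (a log2 scale on which the differences of weakly expressed genes come out too small) if it reached 1 CPM in at least 1 library. Of the 52 members that did so, 11 (21.2%) were higher, where 14.8% of all 13512 genes were, and 24 (46.2%) were lower, where 20.6% of all genes were. Their median log2 ratio was -0.69, beside 0.02 for all genes. Passing the filter favoured differences, so these shares carry no test. In WT alone 11 of the 52 members and 1480 of all 13512 genes reached 1 CPM. In Fbxl10 T/T alone 1 member and 243 of all genes did. With only the 41 members at 5 CPM or more, 11 were higher and 16 lower. Of all 10986 genes at that level 1828 were higher and 1737 lower. The plot of levels shows the members reported here in both libraries.

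**Figure D1:**
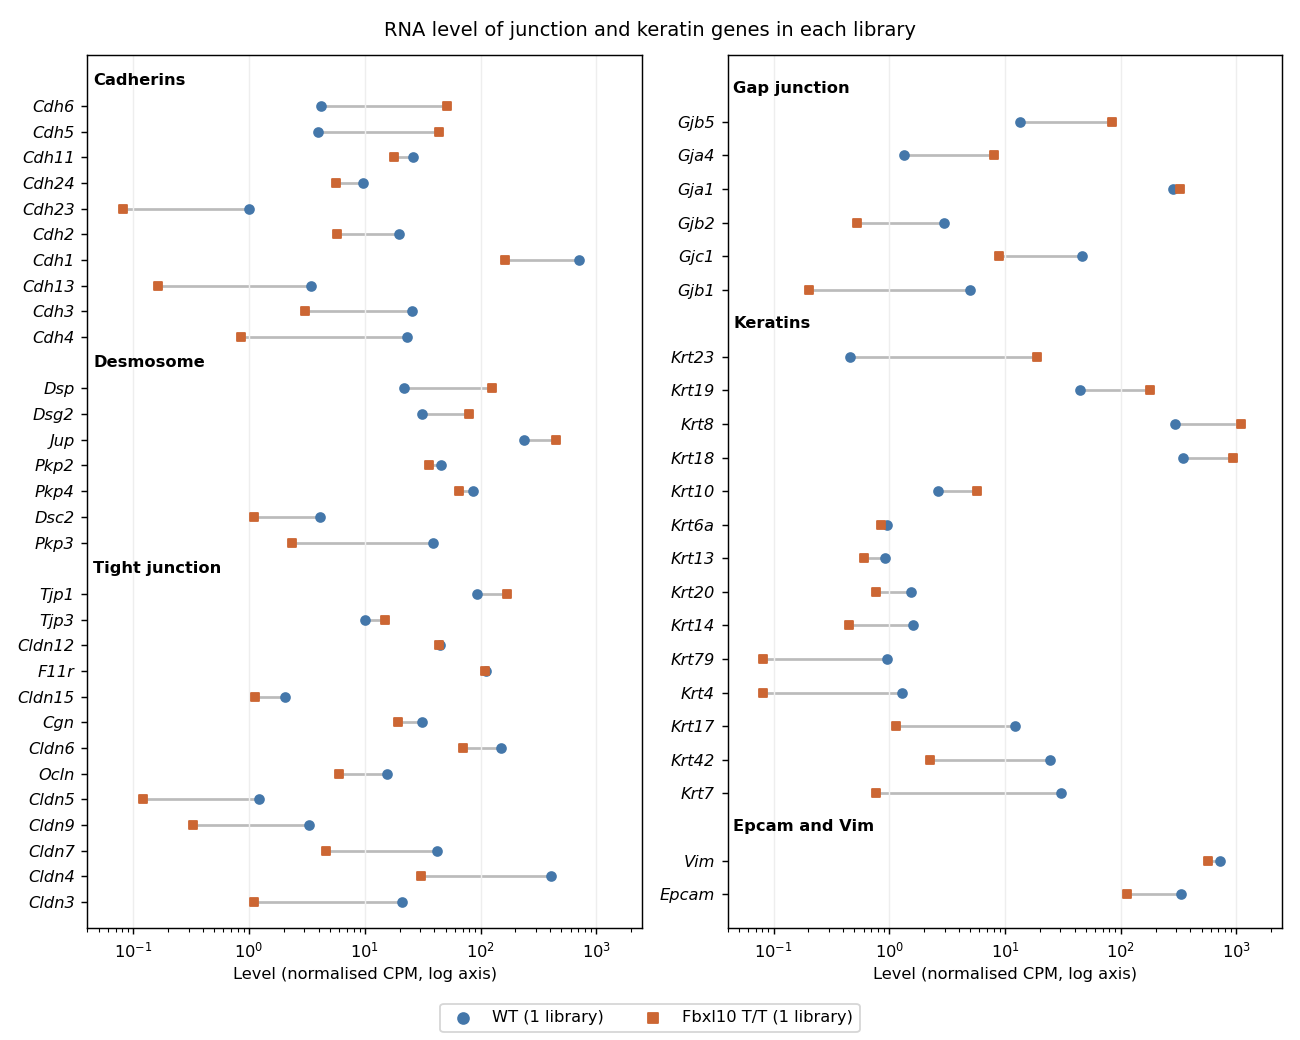
RNA level of each member reported here in WT (circles) and Fbxl10 T/T (squares), in normalised CPM on a log axis, grouped by junction type and ordered by log2 ratio within each group. Krt8 and Krt18 reach 1102 and 936.4 CPM in Fbxl10 T/T, and Cdh1 goes from 715.1 to 163.6 CPM.

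The sequences before the start sites of 6 members are shown because the study's protein binds CpG-rich DNA and the members went in both directions. They are RefSeq sequences of build GRCm38.p6, each the 250 bases before the annotated start, given 5′ to 3′ on the gene's strand. Capitals mark CpG dinucleotides and the E-box CACCTG or its reverse CAGGTG, the core motif of Snail and ZEB repressors. Dsp, Cdh6 and Gja4 were higher in Fbxl10 T/T, and Cldn4, Cldn3 and Epcam were lower.
Dsp (chr13:38151044-38151293, plus strand): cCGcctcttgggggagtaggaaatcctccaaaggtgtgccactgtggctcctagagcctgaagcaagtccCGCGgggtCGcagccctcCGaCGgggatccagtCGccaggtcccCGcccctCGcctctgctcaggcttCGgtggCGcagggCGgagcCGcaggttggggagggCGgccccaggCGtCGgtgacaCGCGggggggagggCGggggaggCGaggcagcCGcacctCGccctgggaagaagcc
Cdh6 (chr15:13173676-13173925, minus strand): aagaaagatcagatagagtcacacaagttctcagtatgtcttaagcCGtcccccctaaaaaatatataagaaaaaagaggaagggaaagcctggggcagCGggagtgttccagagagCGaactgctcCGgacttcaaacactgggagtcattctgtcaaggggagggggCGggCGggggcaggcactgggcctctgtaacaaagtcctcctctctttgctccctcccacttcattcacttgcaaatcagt
Gja4 (chr4:127314040-127314289, minus strand): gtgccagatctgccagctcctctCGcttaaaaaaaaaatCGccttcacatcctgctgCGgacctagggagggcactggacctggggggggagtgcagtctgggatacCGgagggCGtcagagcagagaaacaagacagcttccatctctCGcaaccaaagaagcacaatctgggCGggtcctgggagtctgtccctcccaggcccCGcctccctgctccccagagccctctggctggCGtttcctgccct
Cldn4 (chr5:134946935-134947184, minus strand): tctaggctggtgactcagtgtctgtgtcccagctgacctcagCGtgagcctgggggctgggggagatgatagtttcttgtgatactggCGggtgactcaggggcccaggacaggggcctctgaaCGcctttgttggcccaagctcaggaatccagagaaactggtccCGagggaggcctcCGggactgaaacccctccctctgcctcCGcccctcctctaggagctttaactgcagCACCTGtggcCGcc
Cldn3 (chr5:134985964-134986213, plus strand): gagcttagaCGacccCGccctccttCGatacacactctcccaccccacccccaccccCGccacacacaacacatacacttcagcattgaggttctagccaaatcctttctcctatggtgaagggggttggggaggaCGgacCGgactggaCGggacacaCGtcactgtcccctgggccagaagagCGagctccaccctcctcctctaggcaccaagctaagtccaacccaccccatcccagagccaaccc
Epcam (chr17:87635729-87635978, plus strand): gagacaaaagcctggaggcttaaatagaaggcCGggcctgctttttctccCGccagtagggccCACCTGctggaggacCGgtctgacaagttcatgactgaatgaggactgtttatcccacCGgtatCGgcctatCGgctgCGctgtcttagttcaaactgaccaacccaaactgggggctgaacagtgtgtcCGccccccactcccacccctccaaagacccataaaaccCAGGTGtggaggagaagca

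The Dsp sequence held 22 CpG dinucleotides, against 6 to 9 in the other 5. The E-box was found once before Cldn4 and 2 times before Epcam, and these letters were not in the other 4 windows. The higher members Krt8, Krt18 and Krt23, which are not among the 6 shown, each held 1. The 6 windows therefore do not show a split of this motif by direction. RefSeq starts were matched for 35 of the 55 members, some with several starts. The median number of CpG dinucleotides in the 250 bases was 6 for 7 starts of higher members (7 genes). It was 8.5 for 18 starts of lower members (13 genes), beside 16 for the 12871 starts of all genes tested (10038 genes). Several starts of 1 gene count separately here and in the motif counts, and their windows can overlap. The 2 sets overlapped, at 3 to 22 and 1 to 22. The E-box stood before 3 of the 7 and 8 of the 18 starts, and before 16.3% of the starts of genes tested and 17.2% of all 32851 starts. The GATA motif AGATAA, searched on both strands, stood before 1 of the 7 and 0 of the 18, and before 5.66% of the starts of genes tested. Among members neither higher nor lower it stood before 4 of 17 starts. A match describes the letters only.

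Cadherins divided by member, and no exchange of Cdh1 for Cdh2 was seen. Cdh1, which encodes E-cadherin (ENSMUSG00000000303, chromosome 8 from 109127268 to 109194146 in mm9), was at 715.1 CPM in WT and 163.6 CPM in Fbxl10 T/T. It was 4.37-fold lower (interval 4.22 to 4.53). Cdh2, which encodes N-cadherin, was lower as well, at 19.8 and 5.79 CPM (3.43-fold, interval 2.84 to 4.16). Both classical cadherins of the textbook exchange were therefore lower. The ratio of Cdh1 to Cdh2 reads was 36.0 in WT and 28.2 in Fbxl10 T/T, a 1.28-fold change (interval 1.05 to 1.55). Against Cdh11, a cadherin of mesenchyme, Cdh2 was lower too, with read ratios of 0.756 and 0.327.

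Cdh3, which encodes P-cadherin and lies beside Cdh1, was at 25.8 and 3.04 CPM (8.48-fold lower, interval 6.66 to 10.9), so that the read ratio of Cdh1 to Cdh3 went from 27.8 to 53.8. Cdh4, which encodes R-cadherin, had the smallest cadherin ratio, at 22.9 and 0.851 CPM (27.0-fold lower, interval 17.5 to 43.9). The GPI-anchored Cdh13 (3.43 and 0.162 CPM) and the stereocilia cadherin Cdh23 (1.005 and 0.0810 CPM) were lower too, from 4 and 2 reads in Fbxl10 T/T. With a pseudocount of 1 CPM, Cdh23 was no longer past the 2-fold limit. The type II cadherins in between were Cdh11 at 26.3 and 17.7 CPM and Cdh24 at 9.59 and 5.63 CPM.

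The higher cadherins were both type II. Cdh6, known as K-cadherin, was at 4.19 CPM in WT and 50.9 CPM in Fbxl10 T/T (12.2-fold, interval 9.91 to 15.0). Cdh5, known as VE-cadherin from endothelial contacts, was at 3.94 and 44.2 CPM (11.2-fold, interval 9.08 to 14). Of the reads of all 10 cadherins, 85.9% were from Cdh1 in WT and 56.0% in Fbxl10 T/T, while Cdh6 went from 0.503% to 17.4% and Cdh5 from 0.473% to 15.1%. Per kb of GENCODE M21 exon, Cdh1 was still the highest cadherin in both libraries, at 161.4 and 36.9 CPM per kb. After it came Cdh3 (5.87) and Cdh11 (4.65) in WT, and Cdh5 (11.1) and Cdh6 (6.23) in Fbxl10 T/T. The summed level of the 10 cadherins was 832.1 CPM in WT and 291.9 CPM in Fbxl10 T/T, so the 2 higher genes did not make up for the lower Cdh1. The read ratio of Cdh1 to Cdh6, a pair chosen after their values were seen, went from 170.8 to 3.21, a 53.1-fold change (interval 43.2 to 66.0).

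Cdh5 is used as an endothelial marker, and a list of endothelial markers written after Cdh5 was seen was divided in direction. The part of endothelial cells in the level of Cdh5 was not tested. Of 12 measured 4 were higher and 7 lower, with a median log2 ratio of -1.35, and their summed level was 297.9 CPM in WT and 619.7 CPM in Fbxl10 T/T. The VEGF receptor genes Flt1 (20.98 and 277.2 CPM) and Kdr (2.64 and 36.5 CPM, chosen after its value was seen) and the adhesion gene Esam (7.96 and 120.3 CPM) were higher. Pecam1 (73.7 and 3.89 CPM, chosen likewise) and Eng (128.6 and 6.48 CPM) were lower, and Robo4 was at 11.1 and 0.122 CPM. Cldn5, the claudin of endothelium and a member here, was at 1.21 and 0.122 CPM, from 29 and 3 reads (9.99-fold lower, interval 3.10 to 51.3), a call that a pseudocount of 1 CPM ended.

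**Figure D2:**
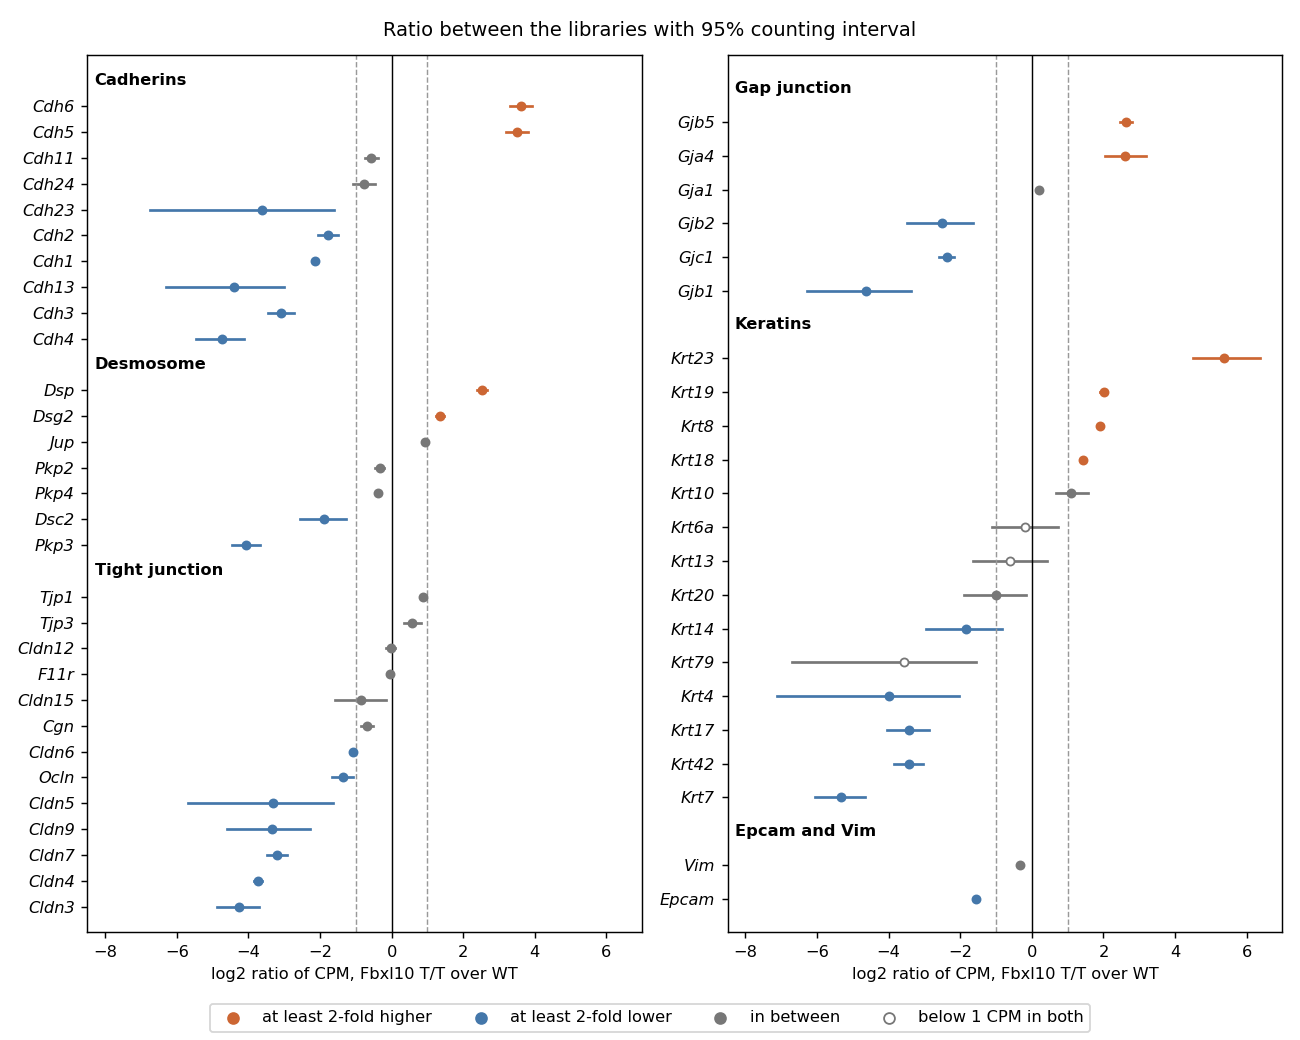
Ratio of the CPM values, Fbxl10 T/T over WT, on a log2 scale for each member reported here, with its 95% counting interval as a line. Colour gives the call on the log2(CPM + 0.5) scale, and dashed lines mark 2-fold. The widest intervals belong to Cdh23, Krt4 and Krt79, each with 2 reads in Fbxl10 T/T.

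Of 16 other genes of cadherin junctions, catenins, nectins and adaptors, 3 were lower and none higher, with a median log2 ratio of 0.13. The beta-catenin gene Ctnnb1, chosen after its value was seen, was at 794.2 and 1061 CPM. The alpha-catenin and p120-catenin genes Ctnna1 (627.9 and 674.9 CPM) and Ctnnd1 (429.1 and 476.0 CPM), chosen likewise, differed by less than the 2-fold limit. Lima1, which links catenin to actin, and Nectin2, an adhesion receptor, had the largest ratios among genes at 5 CPM, at 89.1 and 149.1 CPM and at 140.1 and 220.9 CPM. The lowest were the LIM protein gene Ajuba (253.5 and 85.9 CPM) and the junction adaptor gene Plekha7 (83.1 and 34.5 CPM).

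Desmosome genes split within the structure. Dsp, which encodes the desmoplakin that binds keratin filaments, was at 21.9 CPM in WT and 126.8 CPM in Fbxl10 T/T (5.78-fold higher, interval 5.27 to 6.35). The interval that the table lists for Dsp spans 2092 bases, against 47284 in GENCODE M21, so which part of the gene was counted is uncertain. Dsg2, the desmoglein of simple epithelia, was at 31.2 and 79.6 CPM (2.55-fold higher, interval 2.34 to 2.78). Jup, which encodes plakoglobin, was at 239.6 and 452.3 CPM and stayed under the 2-fold limit (1.89-fold, interval 1.83 to 1.95).

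The other desmosome members went the other way or stayed. Pkp3, a plakophilin gene, was at 39.1 and 2.35 CPM (16.6-fold lower, interval 12.8 to 22.1), while Pkp2 was at 45.4 and 36.0 CPM and Pkp4 at 85.3 and 65.4 CPM. Dsc2, the desmocollin that pairs with Dsg2, was at 4.06 and 1.09 CPM (3.71-fold lower, interval 2.40 to 5.92). The ratio of Dsg2 to Dsc2 reads was 7.69 in WT and 72.7 in Fbxl10 T/T. Thus the reads of the 2 desmosomal cadherins went in opposite directions. Over the 7 desmosome members 2 were higher and 2 lower, and the median of -0.33 turned to 0.29 with a minimum of 5 CPM, which leaves Dsc2 out.

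Other genes of desmosomes and hemidesmosomes included 7 lower ones among 9 measured and no higher one (median -1.81). Perp, a desmosome membrane protein gene, was at 139.4 and 14.2 CPM, and the envoplakin gene Evpl at 13.4 and 1.34 CPM. The integrin genes of hemidesmosomes, Itga6 (124.0 and 17.9 CPM) and Itgb4 (34.3 and 4.13 CPM), were lower as well, both chosen after their values were seen. Plec and Dst, which encode large linkers of filaments to membranes, had the largest ratios, at 308.7 and 271.2 CPM and at 60.8 and 76.7 CPM.

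No claudin was higher in Fbxl10 T/T, and 6 of 8 were lower, with a median log2 ratio of -1.83. Of the lower ones, Cldn5 and Cldn9 reached 1 CPM in WT alone. Cldn4 (ENSMUSG00000047501, chromosome 5 from 135421983 to 135422615 in mm9) had the most reads of the claudins in WT, at 404.2 CPM, and was at 30.4 CPM in Fbxl10 T/T (13.3-fold lower, interval 12.4 to 14.4). Its neighbour Cldn3, like Cldn4 a receptor for a bacterial enterotoxin, was at 21.1 and 1.09 CPM (19.3-fold lower, interval 13.1 to 29.6). Cldn7, which binds Epcam at the lateral membrane, was at 41.9 and 4.58 CPM (9.16-fold lower, interval 7.53 to 11.2). These 3 claudins of polarised epithelia were the lowest by log2 ratio.

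Cldn6, a claudin of embryonic epithelia and pluripotent cells, was lower by less, at 149.9 and 70.6 CPM (2.12-fold, interval 2.00 to 2.25). The adjacent Cldn9 was at 3.27 and 0.324 CPM (10.1-fold lower, interval 4.87 to 24.2). Cldn12, an atypical claudin without the usual PDZ-binding end, was at 44.3 and 43.7 CPM, and Cldn15, a claudin that forms cation pores, at 2.05 and 1.13 CPM. The make-up of the claudin reads therefore differed. Cldn4 gave 60.5% of them in WT and 19.99% in Fbxl10 T/T, Cldn6 22.4% and 46.5%, and Cldn12 6.64% and 28.7%. The read ratio of Cldn4 to Cldn6 was 2.70 in WT and 0.430 in Fbxl10 T/T, and that of Cldn6 to Cldn7 was 3.58 and 15.4. The ratio of the neighbours Cldn3 to Cldn4 was 0.0522 and 0.0360, and the interval of its change, 0.447 to 1.02, includes no change. The summed level was 668.0 CPM in WT and 151.9 CPM in Fbxl10 T/T, so the higher shares of Cldn6 and Cldn12 come with levels that were lower or alike.

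Of the 6 other tight junction members 1 was lower and 5 were in between, with a median log2 ratio of -0.36. Ocln, which encodes the membrane protein occludin, was the lower one, at 15.4 and 5.95 CPM (2.59-fold, interval 2.13 to 3.16). F11r, which encodes the adhesion molecule JAM-A, was at 112.1 and 108.7 CPM, and the plaque gene Cgn (cingulin) at 31.4 and 19.4 CPM. Tjp1, which encodes the scaffold protein ZO-1, was at 93.3 and 170.7 CPM (1.83-fold, interval 1.74 to 1.93), and Tjp3 at 10.01 and 14.9 CPM. As for Dsp, the table's intervals of Cldn4, Cldn9, Cldn12, Tjp1, Gja1 and Krt19 differ in length from those of GENCODE M21, so no level per length is given for these genes. Without the 8 members of such length differences, 9 of 44 were higher and 22 lower.

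Of 26 other tight junction and polarity genes 6 were higher, 5 lower and 15 in between (median 0.45). Members of the JAM family and its relatives stood at both ends. Esam was 15.1-fold higher (interval 13.1 to 17.6), and Cxadr, the coxsackievirus and adenovirus receptor gene, was at 27.2 and 161.3 CPM. Jam3, chosen after its value was seen, was at 33.4 and 144.9 CPM, whereas Jam2 was at 81.4 and 7.41 CPM (10.98-fold lower, interval 9.43 to 12.8). Ildr1, a gene of tricellular contacts, was at 25.3 and 1.90 CPM.

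**Figure D3:**
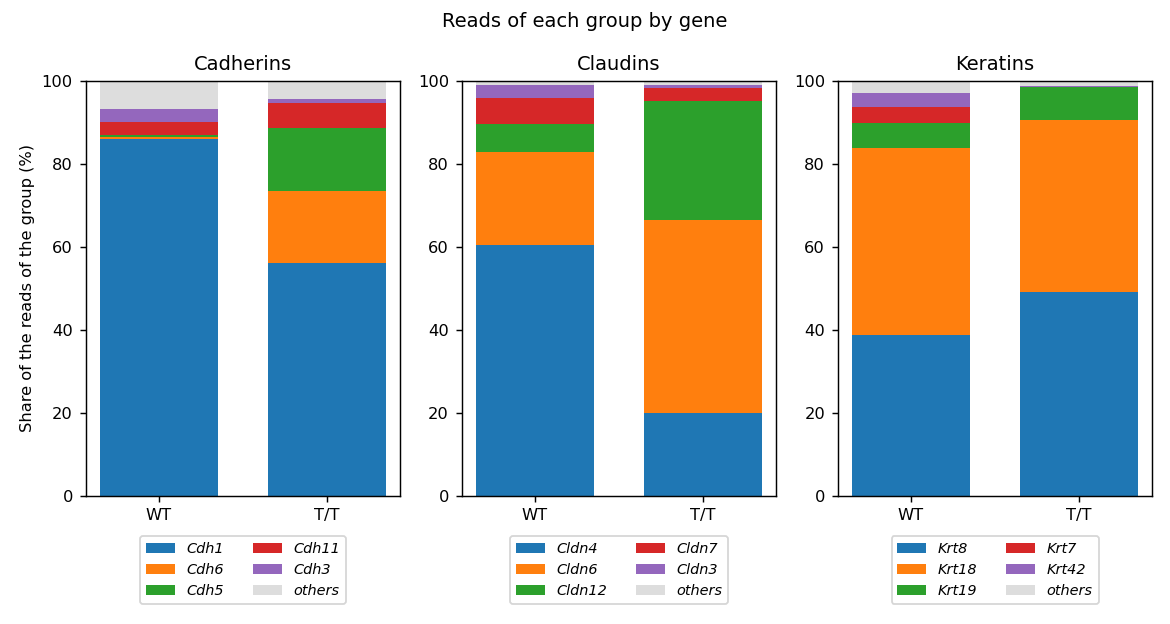
Share of the reads of each group that came from each gene, in WT and Fbxl10 T/T, for cadherins, claudins and keratins, with the 5 genes of the highest share named and the rest in grey. Shares are not corrected for gene length. Cdh6 and Cdh5 take 17.4% and 15.1% of cadherin reads in Fbxl10 T/T, and Cldn4 goes from 60.5% to 19.99% of claudin reads.

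The connexins differed in make-up, with 3 higher, 3 lower and 2 in between. Gja1, the connexin of heart muscle and many other tissues, had the most reads in both libraries, at 283.7 and 324.7 CPM (1.14-fold, interval 1.11 to 1.18), and a rescaling of both libraries to the same upper quartile turned its direction. Gjb5, a connexin of trophoblast and skin, was at 13.6 and 83.8 CPM (6.16-fold higher, interval 5.47 to 6.94). Gja4, a connexin of arteries and of the oocyte, was at 1.34 and 8.06 CPM (6.02-fold higher, interval 4.13 to 9.03).

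The lower connexins had low levels in both libraries, except Gjc1. Gjc1, a connexin of early heart and vessels, was at 46.5 and 8.91 CPM (5.22-fold lower, interval 4.51 to 6.06). Gjb1, the liver connexin, was at 5.02 and 0.203 CPM (24.8-fold lower, interval 10.3 to 77.8). Gjb2 was at 2.97 and 0.527 CPM (5.65-fold lower, interval 3.10 to 11.1). The 4 further channel and connexin-linked genes measured were Panx1 (15.7 and 31.9 CPM), Cnst (16.6 and 17.5 CPM), Tuba1a (216.1 and 96.5 CPM) and Panx2 (1.005 and 0.0810 CPM).

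The keratins Krt8, Krt18, Krt19 and Krt23 were higher in Fbxl10 T/T, and 5 of the 7 other keratins tested, among them Krt7, were lower. Of these, Krt7, Krt14 and Krt4 reached 1 CPM in WT alone, and Krt23 in Fbxl10 T/T alone. Krt8 (ENSMUSG00000049382, chromosome 15 from 101827142 to 101834742 in mm9), the type II partner of Krt18, was at 295.1 CPM in WT and 1102 CPM in Fbxl10 T/T (3.74-fold, interval 3.64 to 3.84). Krt18, the type I partner, was at 345.2 and 936.4 CPM (2.71-fold, interval 2.64 to 2.78). Krt19, a type I keratin of simple epithelia with a very short tail, was at 44.4 and 178.3 CPM (4.01-fold, interval 3.75 to 4.30). Within the pair, the read ratio of Krt8 to Krt18 went from 0.855 to 1.18 (1.38-fold, interval 1.33 to 1.43), while that of Krt8 to Krt19 was 6.64 and 6.18, a 1.07-fold change whose interval includes no change. These 3 keratins gave 89.8% of all keratin reads in WT and 98.6% in Fbxl10 T/T. Per kb of exon, Krt18 and Krt8 were at 240.3 and 150.7 CPM per kb in WT and at 651.6 and 563.0 in Fbxl10 T/T. Both genes have processed pseudogenes, with which reads can be shared, so their levels are uncertain to that degree.

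Krt23, a type I keratin of glandular and gut epithelia, had the highest ratio of all members, at 0.461 and 18.9 CPM, from 11 and 467 reads (41.1-fold, interval 22.7 to 82.8). Krt10, a keratin of differentiating epidermis, was at 2.64 and 5.67 CPM and lay just under the limit with a log2 ratio of 0.98, and above it at 1.08 with a pseudocount of 0.1 CPM.

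Krt7, a type II keratin of ducts and trophoblast, had the lowest ratio of all members. It was at 30.7 CPM in WT and 0.770 CPM in Fbxl10 T/T, from 733 and 19 reads (39.9-fold lower, interval 25.4 to 66.6). The read ratio of Krt7 to Krt8 went from 0.104 to 0.000698, a 149.0-fold change (interval 94.6 to 249.0). GENCODE M21 places an antisense gene, Gm671, over the start of Krt7, and the strand setting of the counting is not given, so reads of the 2 cannot be told apart. Krt17, a keratin of hair follicles and wounded skin, was at 12.3 and 1.13 CPM (10.9-fold lower, interval 7.36 to 16.6), and the neighbouring type I gene Krt42 at 24.6 and 2.27 CPM (10.8-fold lower, interval 8.23 to 14.5).

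Krt14, of basal epidermis (1.59 and 0.446 CPM), and Krt4, of mucosal epithelia (1.30 and 0.0810 CPM), were lower from 11 and 2 reads in Fbxl10 T/T, and Krt14 was no longer lower with a pseudocount of 1 CPM. Krt20, an intestinal keratin, was at 1.55 and 0.770 CPM. The 3 members that did not reach 1 CPM were the epithelial keratins Krt6a, Krt13 and Krt79, at 0.921 to 0.963 CPM in WT and 0.0810 to 0.851 CPM in Fbxl10 T/T. Krt14, Krt17 and Krt42 are close in sequence, so the split of reads among them is uncertain. Over the 11 keratins tested 4 were higher and 5 lower, and the median of -0.69 turned to 1.21 with a minimum of 5 CPM, since that leaves out low keratins. The summed keratin level was 762.8 CPM in WT and 2249 CPM in Fbxl10 T/T.

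Some of the members lie in 7 clusters (neighbours within 1000 kb), and 3 of these held both higher and lower members. Other members, such as Cdh5, Cdh6, Dsp and Epcam, had no member that near. On chromosome 15, Krt8 and Krt18 were higher at the end of a 619.6 kb stretch that begins with the lower Krt7. On chromosome 11, Krt19 was higher, while Krt14, Krt17 and Krt42, in the same 1012.5 kb cluster, were lower. The pairs Cldn3 with Cldn4, Cldn6 with Cldn9 and Cdh1 with Cdh3 were lower together, whereas Dsc2 and Dsg2 went apart.

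**Figure D4:**
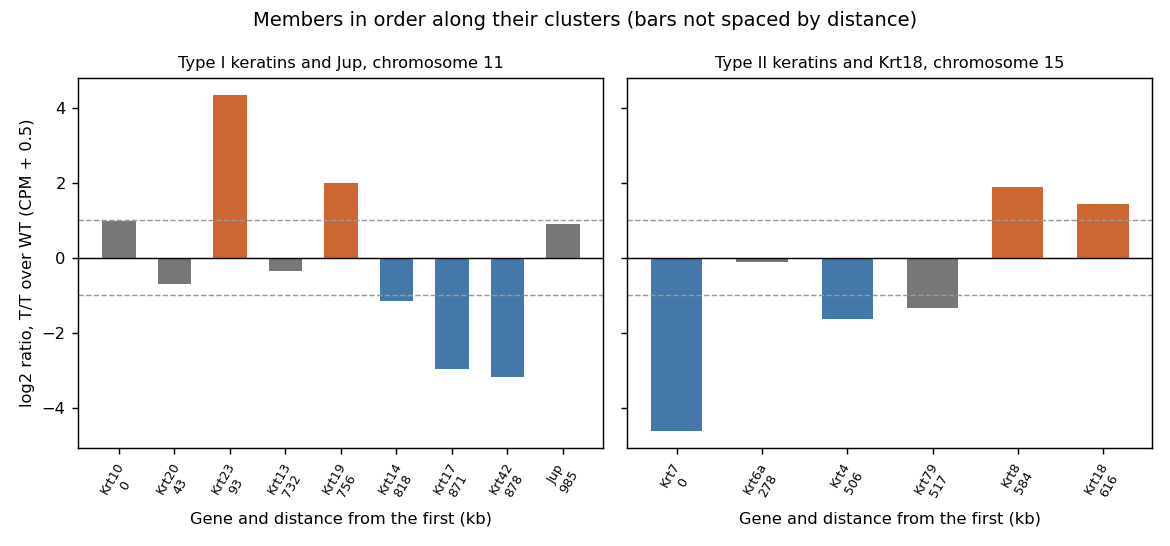
Log2 ratio, Fbxl10 T/T over WT on the log2(CPM + 0.5) scale, of the members in order along the keratin clusters of chromosomes 11 and 15, with the distance of each start from that of the first member in kb. Colours are as in the plot of ratios, and dashed lines mark 2-fold. Both clusters hold bars past the upper and the lower line.

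Vim and Epcam did not exchange either. Epcam, an adhesion molecule of ES cells and epithelia (ENSMUSG00000045394, chromosome 17 from 88036063 to 88050243 in mm9), was at 334.8 CPM in WT and 113.1 CPM in Fbxl10 T/T (2.96-fold lower, interval 2.83 to 3.09). Vim, which encodes the filament protein vimentin of mesenchymal and cultured cells, was at 722.6 and 572.0 CPM (1.26-fold lower, interval 1.24 to 1.29). The read ratio of Epcam to Vim went from 0.463 to 0.198, with Epcam lower and Vim not higher. Vim, Cdh2 and Cdh11 are also made by fibroblasts. Of 19 fibroblast markers measured 3 were lower and none higher (median -0.52), and their summed level was 1574 CPM in WT and 1056 CPM in Fbxl10 T/T. Col1a1 was at 101.6 and 117.3 CPM, Postn at 10.8 and 14.9 CPM, Loxl1 at 34.96 and 12.6 CPM and Fstl1 at 372.0 and 79.5 CPM. The part of feeder RNA in the 3 members was not tested.

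The other intermediate filament genes were mostly lower, at 9 of 12, with 1 higher (median -1.55). The higher gene was Lmna, for the lamin of differentiated nuclei, at 401.4 and 1303 CPM. The neuronal filament genes Ina (66.2 and 6.44 CPM) and Nefh (50.7 and 4.98 CPM) were lowest, and the neural stem cell gene Nes was at 26.5 and 25.4 CPM. Krt8, Krt18, Krt19, Krt23 and Lmna were thus the higher genes among all filament genes measured.

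Transcription factors that repress or uphold the epithelial state were measured alongside. Of 10 factors linked to epithelial to mesenchymal transition 1 was higher and 2 lower (median -0.83). Snai1, a direct repressor of Cdh1, was the higher one, at 27.6 and 153.8 CPM (5.57-fold, interval 5.13 to 6.06). Twist1 was at 28.6 and 4.17 CPM and Snai3 at 17.1 and 2.15 CPM, while Zeb2 (3.48 and 3.28 CPM) and Snai2 (2.34 and 1.01 CPM), chosen after their values were seen, were low in both.

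Of 19 epithelial regulators 5 were higher and 11 lower (median -1.24). The endoderm factor Hnf4a was among the higher ones (5.28 and 41.0 CPM), and Tfap2c (76.2 and 4.01 CPM) and the membrane protease gene St14 (168.5 and 12.1 CPM) had the smallest ratios. The paralogous splicing regulators of epithelia went apart, both chosen after their values were seen. Esrp1 was at 42.7 and 3.32 CPM and Esrp2 at 10.7 and 62.8 CPM.

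Krt7 and Krt8 mark trophoblast as well as other epithelia, and the lists of other epithelial types did not share 1 direction. Of 10 trophoblast markers 7 were lower and 1, Plet1 (40.9 and 130.6 CPM), was higher (median -2.66), with a summed level of 304.3 CPM in WT and 255.9 CPM in Fbxl10 T/T. Of 7 markers of stratified epithelium 4 were lower and 2 higher (median -3.09), with 526.5 and 88.3 CPM in sum. The cornified envelope genes Sprr1a (1.05 and 13.4 CPM) and Lor (5.53 and 21.9 CPM) were the higher ones, and Sfn was at 350.2 and 35.2 CPM. The summed level of the extraembryonic endoderm markers was 8830 CPM in WT and 76553 CPM in Fbxl10 T/T. The part of a change in cell types in the members' values was not tested.

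**Figure D5:**
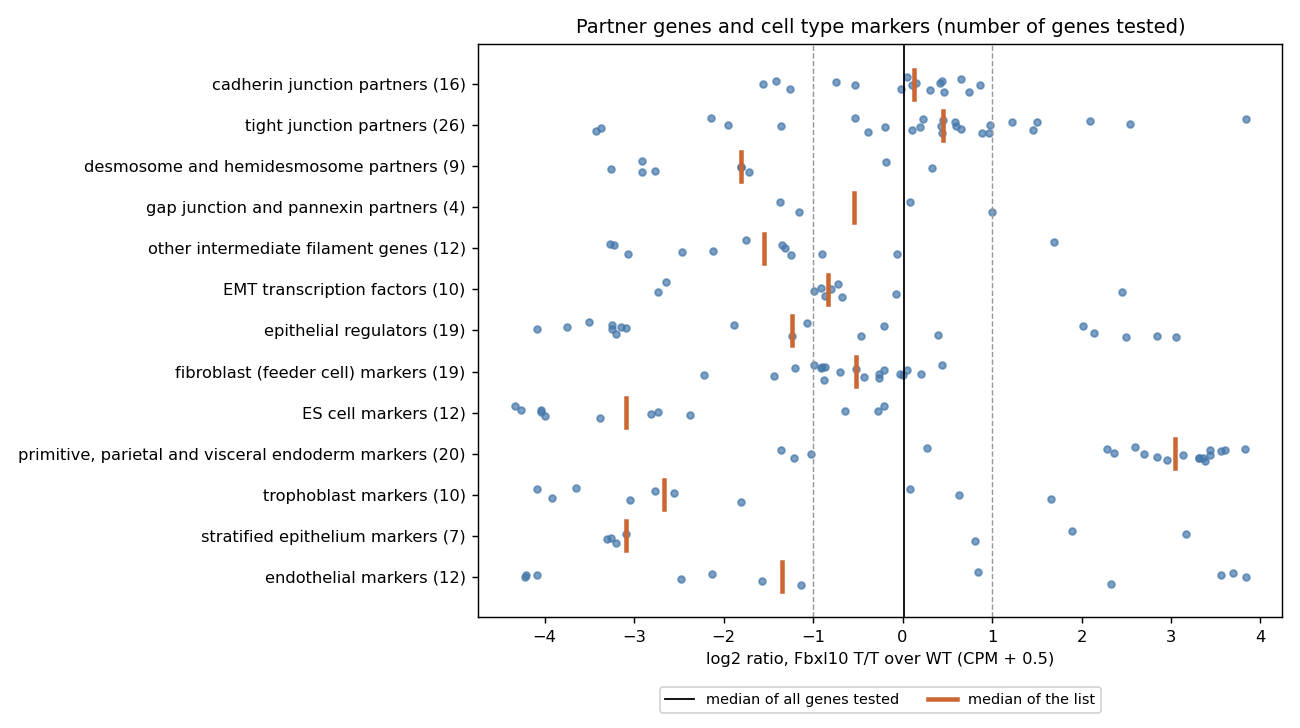
Log2 ratio, Fbxl10 T/T over WT on the log2(CPM + 0.5) scale, of each gene tested in the lists of junction partners, regulators and cell type markers, with the list median as a thick bar and the median of all genes as a line. Endoderm markers lie highest, with a median of 3.05, and the ES cell and stratified epithelium markers lowest, both with a median of -3.09.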

How the data were processed

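Poly(A)+ RNA of WT and Fbxl10 T/T ES cells was sequenced, with 1 library per genotype. Per the submitters' processing notes edgeR, HTSeq 0.5.3p9 and TopHat 1.4.1 were used with genome mm9. The role of each tool, the annotation and the use of strand: not given in the sources used here. A table with a signal per gene and library was deposited by the authors, in normalised CPM. The authors also deposited log2 fold changes and log2 mean CPM, per the file headers, which were used as a check of direction. All values were whole multiples, within 0.01 reads, of 1 step per library (0.0419 CPM in WT, 0.0405 CPM in Fbxl10 T/T), so reads were recovered for 100% of them. Of 24706 rows, 11086 repeated a gene and each of the 13620 genes was used once. The columns sum to 887645 and 1098136 CPM, not to 1000000, so the library sizes behind them were not the sums of the listed reads.

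Ratios were computed as log2(CPM + 0.5) differences, Fbxl10 T/T minus WT, for genes that reached 1 CPM in either library, with 2-fold as the limit. Counting intervals (95%) are exact binomial intervals for folds and exact conditional ones for ratios of read ratios, computed with scipy 1.17.1; reads without molecular identifiers are not independent molecules. A level of 3 reads is 0.126 CPM in WT and 0.122 CPM in Fbxl10 T/T. A binomial test of reads called 5792 genes higher and 5580 lower, but it compares these libraries, not the genotypes. The calculation was tested on simulated data. Coordinates are those of the table in mm9; exon lengths come from GENCODE M21 and promoters from RefSeq, GRCm38.p6.

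Members and lists were chosen with earlier results of these data known. Named were Kdm2b, each member at 5 CPM or more, up to 2 at either end of each junction type below that, and up to 2 genes at either end of each list at 5 CPM or more, and all genes of a list with up to 4 measured; other genes are marked as chosen later. The endothelial list, the binomial call rule and the set without members of deviating length were added after seeing the data. Of the pairs planned, Pkp1 with Pkp2 was not analysed here. Some members and list genes enter the counts and are not reported here by name.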

Additional observations from a re-analysis of the deposited data

How the results depend on the processing

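No paired analysis was possible because each genotype had 1 library, which also leaves no library to omit. With a minimum of 5 CPM, 1828 of 10986 genes were higher and 1737 lower. With 1.5-fold as the limit 3582 of all genes were higher. With 4-fold, 519 of all genes were higher and 1229 lower, and of the members 6 were higher and 14 lower. No member that was called changed direction under any alternative run. Of 80 alternative values of the main counts and medians, 74 stayed within the limits set, which are not given here. For medians these limits were wide enough to hold a change of sign, as for keratins, desmosomes and connexins. The 74 values are therefore no measure of stability. The medians of keratins and desmosomes turned to 1.21 and 0.29 with a minimum of 5 CPM, which leaves fewer genes tested, and that of connexins turned from 0.17 to -0.05 with the upper quartile rescaling. That rescaling moved the Fbxl10 T/T values relative to WT by -0.24 log2 units, and the ratios of weakly expressed genes by less because of the pseudocount. It also turned Gja1, which was not called, to -0.04. With a pseudocount of 1 CPM, Cdh23, Cldn5 and Krt14 were no longer lower, and with 0.1 CPM Krt10 was higher at 1.08. Without the 8 members whose interval in the table differs in length from GENCODE M21 (among them Dsp, Tjp1, Cldn12, Cldn9, Cldn4, Gja1 and Krt19), 9 of 44 were higher and 22 lower. Few reads limit Cdh13, Cdh23, Cldn5, Krt4 and Krt79 in Fbxl10 T/T.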
